A study of Homo sapiens with 19 samples.

Results

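The elements described here are the oligos of set 1 whose names begin with KUU and carry a base substitution, written as the listed base, its position and the new base before the orientation (KUUAE0071_T12C.fwd), together with the unsubstituted element of the same name and orientation wherever the table lists it. The tables list 144 such substituted forms and 8 unsubstituted elements, 152 of 1534 names in set 1, and the promoter and enhancer tables hold the same 152. The 144 forms belong to 27 elements in 53 combinations of element and orientation, called sets below. QUASARR-seq, the assay used, is a reporter assay that reads promoter and enhancer activity of the same DNA piece in parallel through a pair of barcodes, paBC for the promoter and eaBC for the enhancer. The plasmids of set 1, with the minimal promoter pMYC, were electroporated into K-562, an established human leukaemia cell line, and cells were harvested after 6 h. Each read-out had 2 RNA and 2 DNA libraries, 8 in all. The groups are the paBC RNA libraries set against the paBC DNA libraries, and the eaBC RNA libraries set against the eaBC DNA libraries, all from untreated cells of this 1 line. Replicates 1 and 2 carry no label that makes them separate cultures, so the p-values below measure the spread between these libraries, which may be technical.

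A promoter is the stretch of DNA at which RNA polymerase II begins transcription, and an enhancer raises transcription from a promoter placed elsewhere on the same molecule. Both kinds of element work through short sequences that transcription factors recognise, and many elements can act in either way. Exchanging 1 base inside such a short sequence can remove or create a binding site, while most exchanges outside it leave the activity of the element little altered, which is why substitution series are read position by position in reporter assays.

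The names give the exchanged letters, although neither the full sequences nor the genome positions of the elements are in the tables used here, and no source used here says from which end positions are counted. The 144 forms carry 87 different substitutions, of which 57 are listed in both orientations, 12 only as fwd and 18 only as rev. Positions run from 7 to 331. Of the 87, 80 exchange 1 base, in 41 cases as a transition and in 39 as a transversion, and 7 exchange 2 neighbouring bases. Every one of the 7 double-base exchanges swaps A with C or G with T, and 23 of the 1-base exchanges do so too. Each double-base exchange has a 1-base partner within 4 bases, and the letters that the names reveal fall into 2 patterns, shown here because both recur in several elements. One reads GGNNG on one strand and CNNCC on the other: KUUAE0036 carries it at 135 to 139 (GG135TT and G139T), KUUAE0081 at 46 to 50 (GG46TT and G50T), KUUAE0027 at 64 to 68 (C64A and CC67AA) and KUUAE0118 at 151 to 155 (C151A and CC154AA). The other reads ANTG, or CANT on the opposite strand: KUUAE0129 carries it at 172 to 175 (A172C and TG174GT), KUUAE0147 at 174 to 177 (A174C and TG176GT) and KUUAE0027 at 57 to 60 (CA57AC and T60G). N stands for a letter that no name gives.

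Read counts given here and below were recovered from the deposited signals by taking the common step of each column as 1 read, which is an assumption. Total reads were 6617407 and 6916053 in the paBC RNA libraries and 10880944 and 10701434 in the paBC DNA libraries. The eaBC libraries were shallower, with 1260027 and 1475068 RNA reads and 3032786 and 3052549 DNA reads. The activity of a form is given as its level, the log2 ratio of RNA over DNA on the authors' scale with 0.5 reads added, for replicates 1 and 2. KUUUT0130_A192G.rev, with 36 paBC DNA reads and 13 eaBC DNA reads in replicate 1, was listed without a test, which leaves 151 of 152. Over these 151, the SD between replicates had a median of 0.12 in the promoter read-out (range 0.00295 to 0.41) and 0.07 in the enhancer read-out (range 0.00112 to 0.52). The 2 replicates share 1 plasmid pool, and the number of barcodes behind each form is not given in the tables used here, so differences between the plasmids of a form do not enter the errors.

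Most of these forms were active in both read-outs. Of the 151, 142 in the authors' deposited table had more RNA than DNA in the promoter read-out at an adjusted p under 0.05 (94.0%), against 56.1% of all elements tested, and 3 had less, against 26% of all elements. In the enhancer read-out 143 had more in the authors' deposited table (94.7%), against 54.6% of all elements, and 1 had less, against 11.8%. The median level of the substituted forms was 2.01 in the promoter read-out and 1.93 in the enhancer read-out, where all elements of the tables had medians of 0.39 and 0.23. Substituted elements outside KUU, 66 in each table, had medians of 1.96 and 1.64, so a high level is shared by the substituted elements of the set. Whether elements were picked for substitution because they were active is not given in the sources used here.

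By name group, the 11 KUUAT forms had the highest medians, 3.10 in the promoter and 3.39 in the enhancer read-out. They come from only 2 elements, KUUAT0042 and KUUAT0049, and forms of 1 element are not independent. KUUAT0042 had promoter levels of 2.62 (C317T.fwd), 1.35 (C317T.rev) and 1.73 (G56A.rev), and enhancer levels of 3.11, 2.39 and 2.38. The 83 KUUAE forms, of 14 elements, had medians of 2.29 and 2.14, and the 49 tested KUUUT forms, of 11 elements, 1.19 and 1.07. The ranges of the groups overlapped. KUUAE0036_GG135TT.fwd had the highest promoter level, 3.71, and KUUUT0102_G280A.rev the lowest, -1.39. In the enhancer read-out KUUAT0049_C12T.fwd was highest at 4.44 and KUUAE0100_G25A.fwd lowest at 0.02.

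The direct question, what a substitution does to its own element, can be asked for 15 of the 144 forms, since 129 have no unsubstituted partner in the tables. In the promoter read-out 8 of the 15 changed, 6 downwards and 2 upwards, where 60% of all 25 such pairs of the table were called in either direction, 52% lower and 8% higher. This was tested with limma on the substituted minus unsubstituted difference within each library, RNA minus DNA, so that a shift shared by both forms of a pair drops out. Only 2 of the 15 differed by 0.5 or more on the log2 scale. The 25 pairs include these 15, and the 2 called higher are the only such calls of the table. Shares over all pairs given below likewise include the pairs of these elements.

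KUUAE0129_A73G.fwd fell most. Its promoter levels were 0.76 and 0.64, against 2.46 and 2.26 in unsubstituted KUUAE0129.fwd, so the values lay far apart in both replicates. The change was -1.66 ± 0.0922 (SE, n = 2), 3.17-fold lower, with an adjusted p of 0.000259. Of the other 3 substitutions of this element, A206G.fwd fell by 0.26, with 2.15 and 2.05 against the same 2 unsubstituted values (adjusted p = 0.0165). TG174GT.fwd and T213C.fwd, with changes of -0.07 each, did not pass the test. A73G.fwd had 847 and 879 paBC DNA reads, against 6237 and 5915 for KUUAE0129.fwd.

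KUUAE0071_T12C.fwd had promoter levels of 1.06 and 1.06, against 1.97 and 1.76 in KUUAE0071.fwd. All values of the substituted form were below those of the unsubstituted one, and the change was -0.81 ± 0.0846 (SE, n = 2; adjusted p = 0.00182). At position 7, 5 bases away, T7A.fwd lay on the other side with 2.17 and 2.01, a change of 0.22 (adjusted p = 0.00662). In the rev orientation T12C was slightly higher than its unsubstituted element, by 0.17 (adjusted p = 0.0178), and T7A differed by -0.07 without passing the test. KUUAE0071_T12C.fwd had 766 DNA reads in each paBC DNA library, against 6145 and 6063 for KUUAE0071.fwd, and the part of this difference in the result was not tested.

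The smaller promoter changes were falls in KUUAE0118 and KUUAE0051. KUUAE0118_CC154AA.rev, with 1.53 and 1.36, and G60C.rev, with 1.59 and 1.37, were both below the 1.87 and 1.66 of KUUAE0118.rev, by 0.32 and 0.28 (adjusted p = 0.00151 and 0.00162). C151A.rev, the 1-base partner of CC154AA, had 1.60 and 1.67 and did not pass. KUUAE0051_T223A.fwd had 0.72 and 0.80, against 1.16 and 0.98 in KUUAE0051.fwd, a fall by 0.31 (adjusted p = 0.0253) that did not pass with the replicate number as a block (adjusted p = 0.144). Without DNA replicate 2 the promoter count was 5, and T7A.fwd, T12C.rev and A206G.fwd no longer passed, at adjusted p of 0.0832, 0.136 and 0.0597. Without DNA replicate 1, T7A.fwd and T12C.rev did not pass, at 0.102 and 0.276.

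In the enhancer read-out 10 of the 15 passed, 6 lower and 4 higher, where 70.8% of all 24 such pairs of the table were called, 54.2% lower and 16.7% higher. The 24 pairs include these 15, and the 4 called higher are the only such calls of the table. The fit gave every pair the same standard error, 0.0633, because the spread between libraries was pooled completely over the 24 pairs. The 10 calls therefore rest on that pooled value. Over the 274 pairs of forms tested further on, where the spread is kept partly separate, 5 of the same 15 passed, and the adjusted p of that wider fit is the one given here for enhancer changes.

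The same substitution stood out in KUUAE0129. A73G.fwd had enhancer levels of 0.14 and 0.19, against 2.26 and 2.25 in KUUAE0129.fwd, a change of -2.08, or 4.24-fold lower (wider adjusted p = 0.000295). Its RNA counts in the eaBC libraries were 53 and 65 reads, against 1750 and 2057 for the unsubstituted element, and its DNA counts 215 and 211, against 1625 and 1601. With A73G the mean enhancer level, 0.17, was close to the median of all elements, 0.23, and in the authors' deposited table it did not differ from DNA.

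KUUAE0051_T223A.rev was higher than its unsubstituted element, with 0.53 and 0.30 against -0.26 and -0.27. This rise of 0.68 (wider adjusted p = 0.0117) is set against a promoter change of 0.03 in the same plasmids. KUUAE0118_CC154AA.rev was lower, with 1.38 and 1.30 against 1.77 and 1.76, by 0.43 (wider adjusted p = 0.0157). KUUAE0083_G66T.fwd was lower by 0.34, with 0.44 and 0.28 against 0.77 and 0.62 (wider adjusted p = 0.0405).

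T213C.fwd of KUUAE0129 was higher by 0.26, with 2.50 and 2.52 against 2.26 and 2.25 (wider adjusted p = 0.0499). In the wider fit this call was lost with any of the 4 eaBC libraries left out, at adjusted p between 0.0963 and 0.199, and with the replicate block (0.0962). The remaining 5 enhancer calls did not pass in the wider fit. They were KUUAE0071_T12C.fwd at 0.36, KUUAE0071_T7A.rev at 0.26, KUUAE0129_A206G.fwd at -0.27, KUUAE0129_TG174GT.fwd at -0.22 and KUUAE0118_C151A.rev at -0.17, with wider adjusted p of 0.0674, 0.0637, 0.056, 0.0674 and 0.169. In the fit of the 24 pairs, C151A.rev lost its call without DNA replicate 1 (adjusted p = 0.341).

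Of the 15 substitutions 4 were called in both read-outs, and 3 of the 4 had the same direction, with the enhancer calls of the fit of the 24 pairs: A73G.fwd and A206G.fwd of KUUAE0129 and CC154AA.rev of KUUAE0118. In the wider fit A206G.fwd and T12C.fwd were no enhancer calls (adjusted p = 0.056 and 0.0674), which leaves A73G.fwd and CC154AA.rev. The exception was KUUAE0071_T12C.fwd, lower as a promoter and, in the fit of the 24 pairs, higher as an enhancer. Calls in both read-outs were not counted over all pairs of the table, so these counts are no result about the elements. The difference between read-outs was tested directly as the promoter change minus the enhancer change. It was called for 8 of the 15, 3 positive and 5 negative, where 50% of all 24 pairs were called. For T12C.fwd it was -1.17 ± 0.124 (SE; adjusted p = 0.000105), and this call held with each of the 8 libraries left out. For KUUAE0051_T223A.rev it was -0.64 ± 0.0782 (adjusted p = 0.000224), for KUUAE0118_G60C.rev -0.37, for KUUAE0129_T213C.fwd -0.33 and for KUUAE0071_T7A.rev -0.32. The positive ones were KUUAE0129_A73G.fwd at 0.42, KUUAE0071_T12C.rev at 0.18 and KUUAE0129_TG174GT.fwd at 0.15. The calls of T12C.rev and TG174GT.fwd are the least secure of these. T12C.rev was lost without paBC RNA replicate 2, either paBC DNA library, eaBC RNA replicate 1 or eaBC DNA replicate 2, at adjusted p between 0.0578 and 0.129. TG174GT.fwd was lost without the same 5 libraries and without eaBC DNA replicate 1, at adjusted p between 0.0837 and 0.163.

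Orientation could be tested for 4 of these substitutions, over 8 such pairs in the table. In the promoter read-out 3 of the 4 had a fwd change that differed from the rev change, where 75% of the 8 were called: KUUAE0071_T12C by -0.98 (fwd minus rev; adjusted p = 0.000569), KUUAE0051_T223A by -0.34 and KUUAE0071_T7A by 0.29. With the replicate number as a block T12C alone was called, and T223A and T7A had adjusted p of 0.147 and 0.0829. Without DNA replicate 1 T223A and T7A missed the threshold (adjusted p = 0.115 for both), and without DNA replicate 2 T7A did (adjusted p = 0.111). In the enhancer read-out 3 of the 4 were called: KUUAE0051_T223A by -0.78, KUUAE0071_T12C by 0.37 and KUUAE0083_G66T by -0.30. They are the only calls among the 8 pairs of the table (37.5%). None of these 3 enhancer calls held without DNA replicate 1 (lowest adjusted p = 0.155) or without DNA replicate 2 (lowest adjusted p = 0.115).

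Because so few unsubstituted partners are listed, all forms of a set were also compared with one another, as the later position minus the earlier one. This comparison was chosen after the data were seen. It covers 190 pairs of forms in 43 sets, and pairs that share a form are not independent. In the promoter read-out 93 of the 190 were called, where 53.9% of all 271 such pairs of the table were. In the enhancer read-out 46 of the 190 were called, where 24.8% of all 274 were. The 190 pairs are themselves most of the 271 and 274, so the shares could hardly lie far apart. Neither count is read as a result about these elements.

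Most differences were small. The median size of a difference was 0.19 in the promoter and 0.22 in the enhancer read-out, and 119 and 107 of the 190 pairs differed by under 0.25. A difference of at least 1 was found for 22 pairs in the promoter and 10 in the enhancer read-out. The range within a set had a median of 0.36 and 0.37, and 28 of the 43 sets spanned under 0.5 in either read-out. The promoter read-out had 12 sets that spanned 1 or more and the enhancer read-out 5. With either paBC DNA library left out, 36 promoter pairs were called in place of 93, and without eaBC DNA replicates 1 and 2 the enhancer count was 9 and 19 in place of 46.

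Among the 121 forms in the 33 sets of 3 or more forms, 25 differed from every other form of their set in the same direction in the promoter read-out, 14 lower and 11 higher. In the enhancer read-out 6 did, 4 lower and 2 higher. The same count was not made over all sets of the table, so neither number is a result about these elements. Of the 25, 13 lay at least 0.5 from their nearest form, and of the 6, 4 did. The forms that stood apart are described element by element, with the nearest other form of the set as the comparison.

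KUUAE0104_C300A was the lowest of the 3 listed forms in both orientations and both read-outs. C300A.rev had 1850 and 1799 paBC DNA reads, the fewest of its set, where the others had 3068 to 8952. C300A.fwd had the most of its set, 2327 and 2164. C300A.fwd had promoter levels of 1.44 and 1.49, against 2.73 and 2.43 in C53G.fwd, its nearest form, and 3.15 and 2.80 in G63A.fwd. C300A.rev had 1.87 and 1.62, against 3.61 and 3.31 in C53G.rev and 3.47 and 3.23 in G63A.rev. All values with C300A were below all values of the other forms, by 1.12 in fwd (2.17-fold; adjusted p = 0.00178) and by 1.61 in rev (3.04-fold; adjusted p = 0.000118).

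As enhancers the same forms were further apart. C300A.fwd had 1.26 and 1.13, against 3.14 and 2.97 in C53G.fwd and 3.83 and 3.89 in G63A.fwd. C300A.rev had 1.36 and 1.44, against 3.07 and 3.12 in C53G.rev and 3.09 and 3.01 in G63A.rev. C300A was below its nearest form by 1.86 in fwd and 1.65 in rev (adjusted p = 0.000295 and 0.000614), and the 4 comparisons of C300A with its nearest form were called under every alternative tried. G63A.fwd was also above C53G.fwd, by 0.40 as a promoter (adjusted p = 0.00538) and by 0.81 as an enhancer (adjusted p = 0.0106), while in rev the enhancer levels of these forms differed by 0.04. The promoter gap of G63A.fwd to C53G.fwd missed the threshold without DNA replicate 1 (adjusted p = 0.0527). The unsubstituted KUUAE0104 is listed only in set 2, scaled separately, at 2.28 fwd and 2.60 rev as a promoter and 2.37 fwd and 2.29 rev as an enhancer. These values rest on few reads, such as 33 RNA and 25 DNA reads in replicate 1 for the rev enhancer level, with replicates of 1.94 and 2.64. Because of the separate scaling they are not ranked against the forms of set 1, and no comparison across the sets was made.

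KUUAE0129.fwd has 5 forms, which in position order had promoter levels of 0.70 (A73G), 2.29 (TG174GT), 2.10 (A206G) and 2.29 (T213C) beside 2.36 without substitution. Their enhancer levels were 0.17, 2.03, 1.98 and 2.51 beside 2.25. A73G was thus the lowest form in both, by 1.40 from A206G as a promoter (adjusted p = 0.00031) and by 1.82 as an enhancer (adjusted p = 0.000295), and T213C was the highest as an enhancer. In rev, where A73G is not listed, the promoter levels of A172C, TG174GT, A206G and T213C were 2.50, 2.77, 2.47 and 2.56, and the enhancer levels 2.20, 2.13, 1.95 and 2.31. TG174GT.rev was above each of the other 3 as a promoter, by 0.20 from T213C.rev (adjusted p = 0.0163), a call lost without DNA replicate 1 (adjusted p = 0.113) or 2 (adjusted p = 0.0903).

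KUUAT0049_G46C.fwd was the lowest form of its set as a promoter and lay inside the range of the others as an enhancer. It had promoter levels of 1.44 and 1.35, against 3.14 and 3.06 in C12T.fwd, 2.75 and 2.44 in G14A.fwd and 3.50 and 3.27 in A331T.fwd. No value of another form came near, and the gap to G14A.fwd was -1.20 (2.3-fold lower; adjusted p = 0.000897). As an enhancer it had 3.92 and 3.93, where G14A.fwd had a mean of 3.72, A331T.fwd 4.17 and C12T.fwd 4.44. It was 0.52 below C12T.fwd (adjusted p = 0.0131), and its gaps of 0.24 below A331T.fwd and 0.21 above G14A.fwd did not pass, with 3 of the 6 enhancer pairs of the set called. The promoter minus enhancer difference for G46C.fwd minus G14A.fwd was -1.41 (adjusted p = 0.00108). In rev the promoter level of G46C, 3.10, was lowest but only 0.14 below that of C12T.rev, and the gap between these 2 forms differed by -1.57 between orientations (adjusted p = 4.28e-06). G46C.fwd had 871 and 816 paBC DNA reads, the fewest of its set, where the others had 1206 to 1896.

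KUUAE0022_G65A.rev also lay apart as a promoter, on 1951 and 2043 paBC DNA reads, the fewest of its set, where the others had 4685 to 8837. Its promoter levels were 2.17 and 1.91, against 3.28 and 3.13 in C10A.rev and 3.34 and 3.17 in C14T.rev. It was 1.17 below its nearest form (2.25-fold; adjusted p = 0.000357). As an enhancer it had 1.72 and 1.73, against 1.56 and 1.59 in C10A.rev and 1.70 and 1.65 in C14T.rev, and no enhancer pair of this set was called (0 of 3 at an unadjusted p under 0.05). The promoter minus enhancer differences were -1.32 and -1.26 against the 2 forms, with an adjusted p of 0.000123 for each. In the fwd set of this element G79T had 2.06 and 1.95, against 2.69 and 2.48 in G78T, the substitution 1 base before it, a gap of -0.58 (adjusted p = 0.0036) that missed the threshold without paBC DNA replicate 1 or 2 (adjusted p = 0.0527 and 0.0599).

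KUUUT0102 was the least active element of the 27 as a promoter. Its G280A.rev form had -1.31 and -1.46, against -0.32 and -0.04 in G65C.rev and -0.02 and -0.28 in G35A.rev, on 87 and 92 RNA reads. It was 1.21 below G65C.rev (2.31-fold; adjusted p = 0.00206). As an enhancer it was the highest of its set at 0.50, although no enhancer pair of the set was called (1 of 3 at an unadjusted p under 0.05), and the promoter minus enhancer differences were -1.60 and -1.51 (adjusted p = 0.00183 for each). In fwd G280A had the highest promoter level of the 3 forms, 0.03, so the gap to G35A differed by 1.56 between orientations (adjusted p = 1.03e-05). G35A.fwd was lowest there, 0.23 below G65C.fwd, and G65C.fwd was lowest as an enhancer, 0.27 below G35A.fwd, with adjusted p of 0.0148 and 0.0469. Both of these small gaps were lost when either DNA library of the read-out was left out, at adjusted p of 0.07 and 0.1 for the promoter and 0.184 and 0.177 for the enhancer. The enhancer gap was also lost without either RNA library (0.113 and 0.0887) and with the replicate block (0.0928).

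KUUAE0036, with 11 forms, has the second longest series. In position order the fwd promoter levels were 2.70 (C52G), 3.65 (C123T), 3.71 (GG135TT), 3.52 (G139T), 3.60 (T156G) and 3.41 (G165A). C52G alone lay apart, with 2.72 and 2.69, by 0.71 from G165A (adjusted p = 0.00114), and it rested on 536 and 515 DNA reads where the other forms had 2794 to 14151. In rev C52G had 3.68, the highest of 5, above C123T (3.51), GG135TT (3.34), G139T (3.56) and T156G (3.47). The gap of GG135TT to C52G was accordingly 1.01 in fwd and -0.34 in rev, a difference of 1.34 (adjusted p = 8.21e-06). Enhancer levels ran from 2.17 (C52G) to 2.59 (GG135TT) in fwd with no pair called (2 of 15 at an unadjusted p under 0.05), and from 2.34 to 2.64 in rev with 1 of 10 called.

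KUUUT0110_G18T.fwd was the lowest form of its set. G18T.fwd had 2.05 and 1.82 as a promoter, against 3.003 and 2.84 in G34C.fwd and 3.02 and 2.87 in C66A.fwd. The gap was -0.99 (1.99-fold lower; adjusted p = 0.0026), and it stood on 328 and 367 DNA reads, against 2848 to 5122 for the others. In rev G18T, with 3.04 and 2.86, stood beside C66A.rev with 2.97 and 2.86 and G34C.rev with 2.86 and 2.64. As an enhancer G18T.fwd had 2.11 and 1.37, an SD of 0.52, and lay below G34C.fwd and C66A.fwd, with 1 of the 3 pairs called.

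KUUAE0147_G70A.rev had promoter levels of 2.15 and 1.95, against 3.03 and 2.73 in A174C.rev and 3.03 and 2.93 in TG176GT.rev, and was 0.84 below the nearer of them (1.78-fold; adjusted p = 0.000474). TG176GT.rev rested on 126 and 133 paBC DNA reads. In KUUAE0081.rev, G50T had 1.23 and 1.34 as a promoter, GG46TT 0.90 and 0.62 and A275G 0.46 and 0.12, and each step was called, by 0.53 and 0.47 (adjusted p = 0.0365 and 0.00841). The first step missed the threshold without either RNA library (adjusted p = 0.118 and 0.11) or DNA replicate 2 (0.0508), and the second without either DNA library (0.0933 and 0.0676).

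In KUUAE0151, G149C lay on opposite sides of the other forms in the 2 orientations as a promoter. G149C.fwd had 0.70 and 0.59, against 1.21 and 0.99 in A148C.fwd, its nearest form, a gap of -0.45 (adjusted p = 0.0094). G149C.rev had 1.47 and 1.21, against 1.19 and 0.76 in T8A.rev, a gap of 0.36 (adjusted p = 0.0125). The fwd form was thus the lowest of its 4 and the rev form the highest of its 4, and the gap to C41T differed by -1.08 between orientations (adjusted p = 1.03e-05). The fwd gap missed the threshold without DNA replicate 1 or 2 (adjusted p = 0.088 and 0.1), and the rev gap without DNA replicate 2 (adjusted p = 0.0599). The other fwd promoter levels in position order were 1.19 (T8A), 1.31 (C41T) and 1.10 (A148C), and the other rev levels 0.98, 0.92 and 0.89. The enhancer levels of the 8 forms lay between 0.45 and 0.89, with 1 of 6 pairs called in fwd and 0 of 6 in rev.

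KUUAE0027 has the longest series, 12 forms. Of its 4 fwd forms, G32A had 2.19, G33C 3.29, CA57AC 2.23 and C64A 2.70 as promoters, and G33C was 0.59 above C64A (adjusted p = 0.00429; 0.0519 without DNA replicate 2). Its 8 rev forms spanned only 0.32, between 3.09 (CA57AC) and 3.41 (A297G), and 6 of their 28 pairs were called. The enhancer levels of the rev forms spanned 1.02, between 2.25 (CA57AC) and 3.27 (G298C), again with 6 of 28 pairs called. Several of these rev forms had few eaBC DNA reads, such as 57 for CA57AC.rev and 72 for G298C.rev in replicate 1.

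The other forms that stood apart did so by under 0.5. KUUUT0063_T232C.fwd was 0.41 above G233A.fwd as a promoter, with 1.40 and 1.40 against 1.08 and 0.91, while T232C.rev, with 0.62 and 0.26, was the lowest of its set. A241G.rev was the highest of that set. KUUAT0049_A331T.fwd was 0.29 above C12T.fwd and KUUUT0054_A172C.fwd 0.23 above C199G.fwd. Each of these 4 gaps was lost without DNA replicate 1, at adjusted p of 0.11 for T232C.fwd, 0.15 for A241G.rev, 0.115 for A331T.fwd and 0.201 for A172C.fwd. Each was also lost without DNA replicate 2, at 0.103, 0.0923, 0.0808 and 0.228, and A241G.rev and A172C.fwd without RNA replicate 1 too, at 0.0784 and 0.0631, and with the replicate block, at 0.0666 and 0.0598.

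At the other end were sets in which no form stood out. KUUUT0122.fwd spanned 0.07 as a promoter, from 2.06 (G315A) to 2.13 (C271A), and limma called no pair of its 3 forms or of the 4 rev forms in either read-out. At an unadjusted p under 0.05 there were 2 such pairs, both among the 6 rev enhancer pairs. KUUAE0034, substituted at positions 35, 224, 276 and 293, had 1 of its 6 rev promoter pairs called and no other pair (2 of 3 fwd promoter pairs at an unadjusted p under 0.05), with fwd promoter levels between 1.97 and 2.11. In KUUUT0100, with C10T, C71T and C215A, no pair was called in either read-out, with promoter levels between 0.43 and 0.67. There, 2 of 3 fwd promoter pairs and 1 of 3 fwd enhancer pairs had an unadjusted p under 0.05. In KUUUT0130 the forms listed differ between orientations, with T56C as the tested form they share. Its fwd promoter levels were 1.12 (T56C), 0.94 (A192G), 0.90 (C202T) and 1.19 (G203A), and rev levels 0.99 (G36C), 0.93 (G50T) and 0.88 (T56C), with 4 of 6 fwd pairs and 0 of 3 rev pairs called (0 of 3 rev pairs at an unadjusted p under 0.05). As enhancers 1 of 6 fwd pairs and 1 of 3 rev pairs were called. In all, 10 of the 43 sets had no promoter pair called and 19 no enhancer pair, where limma called 93 and 46 of the 190 pairs over all sets.

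Neighbouring bases and the double-base sites allow the closest comparison by position. Of 9 pairs of forms substituted at adjacent positions, 7 were called as promoters, with a median size of 0.41, and 1 as an enhancer, with a median of 0.29. The shares over all pairs of the table were 53.9% and 24.8%. Of the 157 pairs of these elements that are neither adjacent, nor at a double-base site, nor with the unsubstituted element, 73 and 39 were called, with median sizes of 0.17 and 0.21, and the kinds of pair were not compared by a test. KUUAE0027_G33C.fwd against G32A.fwd was the largest, 1.10 as a promoter (levels 3.29 and 3.29, against 2.31 and 2.06; adjusted p = 0.000861) and 0.62 as an enhancer (adjusted p = 0.0195). In rev the same 2 forms differed by 0.05 and 0.01, and the promoter gap differed by 1.05 between orientations (adjusted p = 1.95e-05). The new bases of G32A and G33C also differ, so position and base cannot be told apart here.

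Of 9 pairs made of a double-base form and its 1-base partner, 5 were called as promoters and 1 as an enhancer, where 53.9% and 24.8% of all pairs were, so these counts are no result about the sites. In the GGNNG site of KUUAE0081, G50T.fwd was above GG46TT.fwd, with promoter levels of 1.21 and 1.08 against -0.25 and 0.21, by 1.16 (adjusted p = 0.012), and with enhancer levels of 0.91 and 1.01 against -0.04 and 0.30, by 0.83 (adjusted p = 0.00686). In rev the promoter gap was 0.53 (adjusted p = 0.0365) and the enhancer gap -0.06. In the GGNNG site of KUUAE0036 the promoter gap of G139T to GG135TT was -0.19 in fwd and 0.22 in rev, both called, at high levels of 3.34 to 3.71 throughout. At the CNNCC site of KUUAE0118.rev, CC154AA was below C151A by 0.19 as a promoter and 0.26 as an enhancer, and neither passed the test. The ANTG sites of KUUAE0129 and KUUAE0147 in rev gave gaps of 0.26 (adjusted p = 0.0242) and 0.09 as promoters. At the CNNCC site of KUUAE0027.rev, CC67AA was below C64A by 0.09 as a promoter and 0.06 as an enhancer, without passing the test. Over the 6 GGNNG and CNNCC pairs the double-base form was the lower one in 5 as a promoter, 3 of them called, and the higher one in KUUAE0036.fwd, also called. As an enhancer it was lower in 3, 1 of them called, and higher in 3.

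Promoter and enhancer differences of the form pairs went together only in part. Of the 190 pairs 29 were called in both read-outs, 27 of them in the same direction, 64 only as promoters and 17 only as enhancers. The Pearson correlation of the differences was 0.66 over 190 pairs, which share forms and plasmids. The 2 pairs called in opposite directions were KUUAE0071_T12C.rev against T7A.rev, 0.24 as a promoter and -0.26 as an enhancer, and KUUUT0102_G65C.fwd against G35A.fwd, 0.23 and -0.27. The promoter minus enhancer difference was called for 55 of the 190, 17 positive and 38 negative, where 27% of all 270 pairs were called. The count was 29 and 25 without paBC DNA replicates 1 and 2. A331T.fwd minus G46C.fwd of KUUAT0049 was the largest at 1.75 (adjusted p = 0.000123).

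Differences between forms were also set side by side in the 2 orientations, as a description. The 57 pairs of forms listed in both orientations share forms with one another. Their fwd and rev differences had a Pearson correlation of 0.22 in the promoter and 0.59 in the enhancer read-out, not compared by a test. As promoters 36 of the 57 were called in fwd and 26 in rev, where 53.9% of all 271 pairs of the table were called. Of the 20 called in both, 8 had the same direction. As enhancers 19 were called in fwd and 12 in rev, where 24.8% of all 274 pairs were called. The 5 called in both had the same direction. Pairs called in both orientations were not counted over the whole table, so these counts are no result about the elements. The fwd minus rev difference was called for 36 of the 57 as promoters, where 66.2% of all 68 were, and for 8 of the 57 as enhancers, where 11.8% of all 68 were. The enhancer count was 13 without eaBC RNA replicate 1 and 16 with the replicate number as a block. The largest enhancer ones were KUUAT0049_G14A minus C12T at -1.16, with -0.73 in fwd and 0.43 in rev (adjusted p = 0.0175), and KUUUT0110_G34C minus G18T at 1.16, with 0.87 in fwd and -0.29 in rev (adjusted p = 0.0365). Both rest on forms with few eaBC DNA reads in replicate 1, 64 for KUUAT0049_C12T.rev and 102 for KUUUT0110_G18T.fwd.

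Distance from the other forms was also set against position, as a description. The size of the distance to the median of the other forms had a median of 0.21 for the 62 forms at positions up to 100, 0.15 for the 23 above 100 and up to 200, and 0.17 for the 32 above 200 as promoters, and 0.25, 0.11 and 0.16 as enhancers. Its Spearman correlation with position was -0.12 as promoters and -0.14 as enhancers over 117 forms. Forms with fewer DNA reads lay further from the others, with a Spearman correlation of -0.30 as promoters and -0.25 as enhancers over 121 forms, which share libraries and sets. Of the 25 promoter forms that stood apart 10 had the fewest DNA reads of their set and 6 the most, and of the 6 enhancer forms 3 and 1. The part of the read count in these results was not tested.

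The unsubstituted elements of 43 of the 53 sets are listed in set 2 with the same minimal promoter. Across these 43 the median level of the substituted forms in set 1 and the level of the unsubstituted element in set 2 had a Pearson correlation of 0.94 in the promoter and 0.94 in the enhancer read-out, as a description over elements that differ widely in activity. The tables were scaled separately. The substituted forms of set 1 lay a median of 0.52 and 0.53 above the unsubstituted elements of set 2. Unsubstituted elements listed in both sets were 0.22 and 0.13 higher in set 1, as medians over 1137 and 1139 elements of all activity levels. That offset was not matched for activity, so no change is read from this.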

How the data were processed

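Per the labels, 20 µg of plasmid went into each electroporation, 5 electroporations made a technical replicate and 2 of these a biological one, RNA and DNA came from 1 split pool, and reads were 150 bp. The tools fastp, edgeR and limma and the build hg38 are named, per the submitters' processing notes, without roles or versions. The deposited signal columns were whole multiples of 1 step per column (100% of values, tolerance 0.02), and the step was taken as 1 read. Per the file headers, the authors also deposited limma output for RNA over DNA: log2 fold changes, a score (moderated t) and p-values with their adjusted values, used here for calls of RNA over DNA.

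Levels are log2 ratios of RNA over DNA on the deposited scale with 0.5 reads added. Differences between forms were taken within each library and fitted with limma 3.58.1 in R 4.3.3 (RNA minus DNA, empirical Bayes), over all pairs of the table. Fits of 1 read-out had 2 residual degrees of freedom, and fits of both read-outs, over 8 libraries, had more. Benjamini-Hochberg adjustment was over all pairs of a fit, with a call at an adjusted p under 0.05. Tables were handled in Python 3.11.15 with numpy 2.4.6, scipy 1.17.1 and pandas 2.3.3. The members, lists and comparisons were chosen with earlier results of these data known, and all comparisons of pairs of forms other than with the unsubstituted element were added after the data were seen. Named were all called pairs with an unsubstituted element, the elements with the most substitutions (2 lead and 4 tie) and, chosen after their values were seen, every form apart from its whole set.

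The replicate numbers pair the libraries per the labels' protocols, since each replicate gave both RNA and DNA libraries from 1 pool of cells. The main fits did not use this pairing, so their p-values are from an unpaired model. Fits with the replicate number as a block are given as an alternative. Deviations of same-numbered RNA and DNA libraries correlated at -0.02 in paBC and 0.41 in eaBC over 1528 elements. The fits were tested on simulated data with known changes. There the fits of fwd minus rev changes, over 8 pairs each, made more false calls than their threshold allows, and the fit of enhancer fwd minus rev form pairs found fewer true changes than the promoter one. Alternatives were the replicate block, 5 or no reads added, minimum reads of 100 or 50, stricter thresholds, other references, a z test and leaving out each library. Intervals from read counts are not given, since PCR reads are not independent molecules. Set 2 pMYC served for description only, and tables of other minimal promoters were not used.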

Additional observations from a re-analysis of the deposited data

Results flagged for a closer look

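Differences between the read-outs were called by a direct test for 8 substitutions with an unsubstituted partner, as the promoter change minus the enhancer change. They were -1.17 for KUUAE0071_T12C.fwd, -0.64 for KUUAE0051_T223A.rev, -0.37 for KUUAE0118_G60C.rev, -0.33 for KUUAE0129_T213C.fwd, -0.32 for KUUAE0071_T7A.rev, 0.42 for KUUAE0129_A73G.fwd, 0.18 for KUUAE0071_T12C.rev and 0.15 for KUUAE0129_TG174GT.fwd. For A73G.fwd both changes were falls, of different size. The calls of T12C.rev and TG174GT.fwd were each lost when any of several single libraries was left out.

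Between orientations, fwd minus rev, the promoter changes differed by -0.98 for KUUAE0071_T12C, -0.34 for KUUAE0051_T223A and 0.29 for KUUAE0071_T7A. The enhancer changes differed by -0.78 for KUUAE0051_T223A, 0.37 for KUUAE0071_T12C and -0.30 for KUUAE0083_G66T. KUUAE0071_T12C was called in each of these 3 comparisons, and its fwd form had 284 and 331 paBC RNA reads, against 4283 and 4282 for the unsubstituted element.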

How the results depend on the processing

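The number of libraries limits every comparison. Each read-out has 2 RNA and 2 DNA libraries of 1 plasmid pool, and the number of barcodes per form is not in the tables used here. A fit of 1 read-out with 1 library left out has 1 residual degree of freedom. No value reversed its sign. Of 63 named differences 19 kept their call under every alternative and 34 with each library left out.

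With 1 library left out, substitution calls numbered 5 to 12 in the promoter read-out (8 with all libraries) and 9 to 11 in the enhancer read-out (10). Form-pair calls numbered 36 to 99 (93) and 9 to 49 (46). Promoter minus enhancer calls numbered 6 to 10 for changes (8) and 25 to 54 for form pairs (55). Fwd minus rev calls for changes numbered 1 to 4 in the promoter read-out (3) and 0 to 3 in the enhancer read-out (3), and for form pairs 28 to 39 (36) and 8 to 13 (8). RNA over DNA calls with all libraries, 145 and 144, are those of the authors' deposited table. The RNA over DNA fits with 1 library left out were run here with limma, a different fit, so their counts are not set beside these. With all libraries the enhancer substitution fit pooled the standard error completely over 24 pairs, so its range of calls is no sign of stability. In the wider fit 5 of the 15 passed.

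At an adjusted p under 0.01, 5 promoter substitutions, 53 promoter form pairs and 12 enhancer form pairs were called. With a size of at least 0.5 also asked for, the substitution calls were 2 in either read-out, the form pairs 39 and 30, the promoter minus enhancer changes 2, the promoter minus enhancer form pairs 30, and the fwd minus rev changes 1 in either read-out. These follow from stricter thresholds. Against the mean of the other listed forms, which 62 forms have, 32 were called as promoters and 22 as enhancers, over more forms than the 15.

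With the replicate number as a block 7 promoter and 12 enhancer substitutions, 79 and 34 form pairs, 8 promoter minus enhancer changes and 49 form pairs were called. The fwd minus rev changes were then 1 and 3, and the fwd minus rev form pairs 32 and 16. Of the named differences it ended the calls given beside their results and, among promoter form pairs, that of KUUAE0071_T12C.rev with its unsubstituted element (adjusted p = 0.0523), and it changed no other named call. The planned edgeR test was not run, because the values could not be taken as recovered reads with enough certainty. All read counts in the text carry the same doubt. The cause of the other changes was not tested.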
